A study of Mus musculus with 12 samples.

Results

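The 4 Hox clusters of the mouse, Hoxa on chromosome 6, Hoxb on chromosome 11, Hoxc on chromosome 15 and Hoxd on chromosome 2, were described by the methylation of the CpG dinucleotides inside 4 windows that hold 38 Hox genes. The windows in the mm9 build are chr6:52095000-52225000, chr11:96045000-96240000, chr15:102740000-102875000 and chr2:74495000-74615000. A CpG was a member when both of its strands together had at least 10 reads in at least 2 libraries of each group. Of 4978 CpGs listed in the windows, 3682 met this rule, among 1156292 autosomal CpGs tested: 975 in Hoxa, 875 in Hoxb, 736 in Hoxc and 1096 in Hoxd. They filled 220 of the 580 tiles of 1000 bp in the windows with at least 3 CpGs each, among 105549 autosomal tiles tested. The tested tiles were 52 in Hoxa, 61 in Hoxb, 54 in Hoxc and 53 in Hoxd.

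The 12 libraries came from bone marrow of C57BL/6 mice aged 6 months, sorted as Lin- Sca1+ cKit+ (LSK) cells, a fraction without mature lineage markers in which stem cells and early progenitors of the blood are found. Each of 4 groups had 3 libraries. Their genotypes were Nras(G12D), an activating change in the signalling GTPase Nras; Tet2(-/-), the deletion of Tet2, whose enzyme converts methylcytosine to hydroxymethylcytosine; and Tet2(-/-) Nras(G12D) in animals without leukemia and in animals with it. The alleles are conditional in blood cells per the series design, and the Cre driver is not named in the labels. The leukemic group was read from a prefix in the titles together with the series design, and is called labelled leukemic. Wild-type libraries, which the design names, were not analysed here, so every comparison is between mutant genotypes. The labels do not say that the 3 libraries of a group were separate animals, so a p-value here is set by the spread among these libraries, which may be technical.

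Hox genes encode homeodomain transcription factors that set position along the body axis, and their order in a cluster follows the order in which they are used from head to tail. In blood formation, genes of the Hoxa and Hoxb clusters such as Hoxa9 and Hoxb4 are known as regulators of stem and progenitor cells, and high Hoxa9 with its cofactor Meis1 is a known feature of several acute leukemias. Unexpressed Hox genes are commonly held silent by Polycomb proteins over CpG islands that lack DNA methylation, so a methylated Hox promoter stands out from that usual state. Methylation does not measure transcription, and RNA was not analysed here.

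Promoter sequences from RefSeq (GRCm38.p6), 250 bases before to 50 after a gene's start, were found for 22 of the 38 genes. A sequence was placed in mm9 only where the spacing of its CpGs matched at least 6 covered positions with none off the pattern and 1 best place. This placed 11 promoters, 4 in Hoxa and 7 in Hoxd, and no gene of Hoxb or Hoxc. All 9 neighbouring pairs of placed promoters lay in the order RefSeq gives the genes. The 4 sequences shown are Hoxa5, the 1 placed promoter with high methylation, its neighbour Hoxa6, and a promoter each from the far ends of Hoxa and Hoxd with low methylation. They are written 5′ to 3′ along the gene, in lower case, with each CpG that was tested in capitals. Hoxa5 lies at chr6:52154537-52154836 and Hoxa6 at chr6:52158622-52158921, Hoxa13 at chr6:52210825-52211124, all on the minus strand, and Hoxd1 at chr2:74600787-74601086 on the plus strand.
Hoxa5: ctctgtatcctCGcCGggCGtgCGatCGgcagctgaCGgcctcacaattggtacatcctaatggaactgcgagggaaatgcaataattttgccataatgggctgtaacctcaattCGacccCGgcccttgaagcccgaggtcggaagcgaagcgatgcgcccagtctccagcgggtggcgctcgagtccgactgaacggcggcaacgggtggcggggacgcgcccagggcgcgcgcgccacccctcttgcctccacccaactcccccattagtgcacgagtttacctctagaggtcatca
Hoxa6: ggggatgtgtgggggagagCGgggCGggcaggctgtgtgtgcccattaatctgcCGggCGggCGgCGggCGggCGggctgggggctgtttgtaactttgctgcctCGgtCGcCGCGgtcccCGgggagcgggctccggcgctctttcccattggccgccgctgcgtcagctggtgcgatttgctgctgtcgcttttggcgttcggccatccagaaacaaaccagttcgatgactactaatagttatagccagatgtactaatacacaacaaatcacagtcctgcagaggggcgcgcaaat
Hoxa13: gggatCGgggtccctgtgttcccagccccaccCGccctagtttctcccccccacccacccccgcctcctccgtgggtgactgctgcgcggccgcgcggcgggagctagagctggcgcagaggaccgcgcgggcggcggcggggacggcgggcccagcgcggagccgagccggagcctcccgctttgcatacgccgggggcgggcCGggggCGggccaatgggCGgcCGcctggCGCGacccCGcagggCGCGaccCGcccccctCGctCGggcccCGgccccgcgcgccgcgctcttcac
Hoxd1: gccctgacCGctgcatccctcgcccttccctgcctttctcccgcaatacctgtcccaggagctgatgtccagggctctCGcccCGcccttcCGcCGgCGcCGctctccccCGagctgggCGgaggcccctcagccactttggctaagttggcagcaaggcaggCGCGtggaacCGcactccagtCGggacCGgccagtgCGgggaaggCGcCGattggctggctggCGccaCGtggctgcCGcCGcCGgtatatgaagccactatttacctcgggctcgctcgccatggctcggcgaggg
The tested CpGs are 8 of 29 in Hoxa5, 13 of 26 in Hoxa6, 15 of 45 in Hoxa13 and 22 of 29 in Hoxd1. MspI, the enzyme that made the fragments, cuts at CCGG, and only one end of each fragment of 150 to 400 bp was read for 50 bases, so the values stand for those stretches of a promoter. That motif, which reads the same on both strands, occurs 2 times in Hoxa5, 3 times in Hoxa6, 4 times in Hoxa13 and 3 times in Hoxd1, and is present in 53.5% of 31396 autosomal promoter sequences of this length. Hoxa5 matched 8 covered CpGs against 6 at its next best place, while the other 3 matched 19, 30 and 27 against 5 or 6, so the place of Hoxa5 is the least certain.

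The libraries summed to between 96300485 and 199736369 reads over listed cytosines, and the median tested CpG of a Hox cluster had 58 to 149 reads in a library. Reads carry no molecular identifiers, so coverage overstates the number of molecules. Tet2(-/-) replicates 1 and 2 and nonleukemic double mutant replicate 1 listed 251 to 360 positions on the Y chromosome and the other 9 libraries 2 to 18. So libraries within Tet2(-/-) and within the nonleukemic double mutant differed in this. No Nras(G12D) or labelled leukemic library was rich in Y chromosome positions, and the groups compared are not balanced for it. CpGs with at least 20 reads in all Nras(G12D) and all labelled leukemic libraries and listed in no Tet2(-/-) or nonleukemic double mutant library numbered 160, of which 155 lie on chromosome 3, the chromosome of Tet2 and Nras, and 0 in the Hox windows. The converse set, listed only in Tet2(-/-) and nonleukemic double mutant libraries, numbered 136, with 96 on chromosome 3. So at these positions the libraries labelled leukemic group with the genotype that carries no Tet2 deletion by its label, and each direction drawn from that label rests on it. At the 24 partly methylated Hox tiles, Tet2(-/-) replicate 2 and labelled leukemic replicates 1 and 3 lay over 20 points from the median of the other libraries at 4 or 5 tiles each, and every other library at 0 to 3. Results that rest on those libraries are given with and without them.

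The CpGs of Hoxa and Hoxb had a higher mean methylation than those of Hoxc and Hoxd in every library, and no difference between groups passed the test. The libraries of 2 groups did not overlap in 3 of 24 comparisons. Hoxa was at 16.7% ± 0.19 (SD, n = 3) in Nras(G12D), 17.0% ± 0.83 in Tet2(-/-), 16.4% ± 0.56 in nonleukemic double mutants and 16.5% ± 1.33 in labelled leukemic libraries. Hoxb was at 18.4% ± 0.36, 20.4% ± 1.90, 18.8% ± 0.50 and 17.7% ± 2.13 in the same order. These means are set by a minority of methylated tracts, as the profile along each cluster shows. Hoxc was at 6.42% ± 0.76, 7.73% ± 0.87, 6.61% ± 0.45 and 6.54% ± 1.08. Hoxd was at 6.39% ± 0.07, 6.78% ± 0.63, 6.75% ± 0.23 and 6.23% ± 0.65.
The 3 libraries of each group behind these values spanned 15.5% to 18.02% in Hoxa for the labelled leukemic group, which was its widest range, and the groups overlapped. In Hoxb the libraries were at 17.95%, 18.6% and 18.5% in Nras(G12D), at 19.2%, 22.6% and 19.5% in Tet2(-/-), at 19.2%, 18.9% and 18.2% in nonleukemic double mutants and at 20.03%, 17.1% and 15.9% in the labelled leukemic group. Tet2(-/-) replicate 2 was the highest, and the labelled leukemic libraries were the most spread, from above every Nras(G12D) and nonleukemic library to below all others. Of 24 comparisons of cluster means by two-sided exact permutation tests, 3 reached p = 0.1, the smallest value that 3 against 3 libraries allow, and the lowest adjusted p was 0.686. These 3 were Hoxb in Tet2(-/-) above Nras(G12D) by 2.08 points, Hoxb in the nonleukemic double mutant below Tet2(-/-) by a difference of -1.66 points, and Hoxd in the nonleukemic double mutant above Nras(G12D) by 0.359 points. Without Tet2(-/-) replicate 2 the differences in Hoxb were 1.045 and -0.623 points, and with CpGs weighted by coverage they were 4.10 and -3.96 points.

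**Figure D1:**
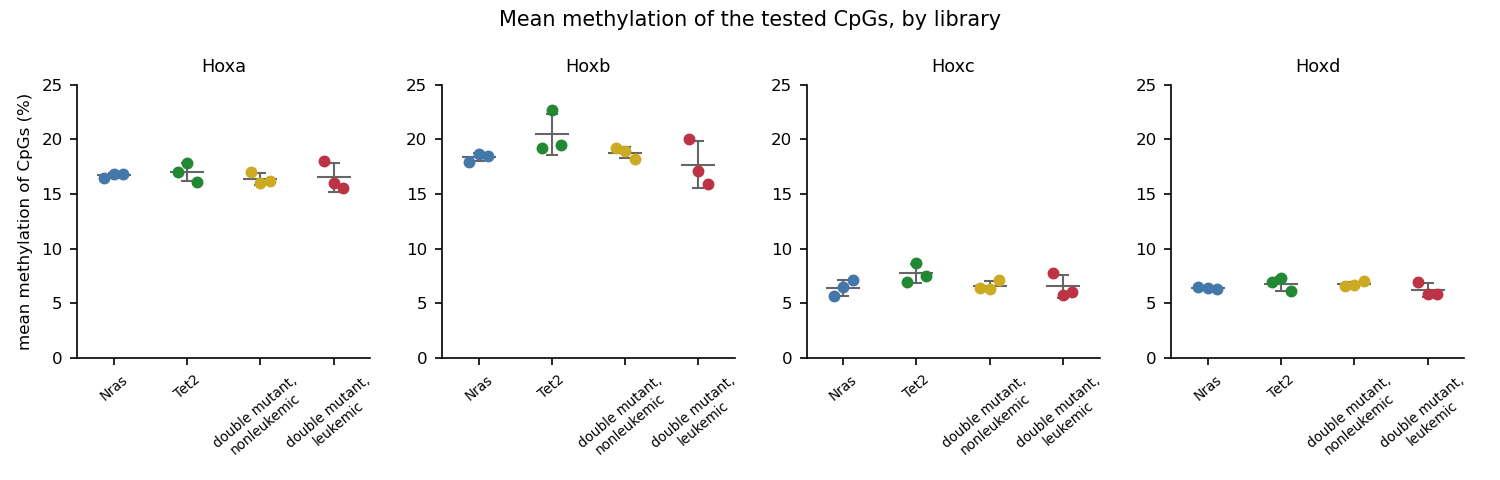
Mean methylation (%) of the tested CpGs of each Hox cluster, with a point for each library and the mean with SD of 3 libraries for each group. Hoxa and Hoxb lie between 15.5% and 22.6% in every library, and Hoxc and Hoxd between 5.63% and 8.68%.

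Low methylation covered most of the tested part of the clusters, with a small number of methylated tracts in Hoxa and Hoxb. The rest of the 580 tiles in the windows had no tested value. Of the 220 Hox tiles, 179 (81.4%) had a mean over the groups under 20%, 24 (10.9%) lay between 20% and 80%, and 17 (7.73%) were over 80%. Over all autosomal tiles the shares were 26.6%, 14.2% and 59.2%. The median tile was at 5.43% in the Hox clusters and at 88.3% over all tiles. Hox tiles also held more CpGs, with a median of 11 against 5, and tiles rich in CpGs are commonly low in methylation. Tiles were not matched for CpG content, and whether it accounts for the difference in shares was not tested. Of the 17 tiles over 80%, 7 lay in Hoxa, 9 in Hoxb, 0 in Hoxc and 1 in Hoxd.

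In Hoxa the methylated tiles lay, by RefSeq's gene order, on the side of the anterior genes Hoxa2 to Hoxa5. A run is made of successive tested tiles and can span tiles without a value. A run of 7 tested tiles in chr6:52118000-52140999 had levels of 50.8% to 93.4%, and a further run of 6 in chr6:52150000-52159999 had 21.6% to 91.3%. Between them, 2 tiles in chr6:52141000-52142999 with 93 CpGs were at 0.774% and 3.79%. From chr6:52161000 to 52223999, which holds the placed promoters of the posterior genes Hoxa11 and Hoxa13, all 32 tested tiles with 576 CpGs were between 0.149% and 13.7%. Hoxa11 and Hoxa13 pattern limbs and the urogenital tract.

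In Hoxb the methylated tiles were broken into 7 runs. They included chr11:96092000-96093999 at 89.1% and 89.3%, the single tile at chr11:96110000-96110999 at 92.6%, a run of 5 tiles in chr11:96121000-96130999 at 33.4% to 58.0%, and 4 tiles in chr11:96203000-96207999 at 66.0% to 93.9%. The longest low stretch, 15 tiles in chr11:96131000-96162999, was between 0.180% and 10.04%. In Hoxc just 3 of 54 tiles reached 20%, at 21.6%, 32.0% and 22.5%, and the rest were lower. In Hoxd the 25 tested tiles of chr2:74495000-74537999, where the promoters of Hoxd13, Hoxd12, Hoxd11, Hoxd10 and Hoxd9 were placed, were between 0.264% and 12.7%. These are the posterior genes of that cluster. Hoxd tiles over 60% lay between the placed promoters of Hoxd3 and Hoxd1, at chr2:74559000-74559999 with 63.4%, chr2:74563000-74563999 with 77.4% and chr2:74566000-74567999 with 65.4% and 80.4%.

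**Figure D2:**
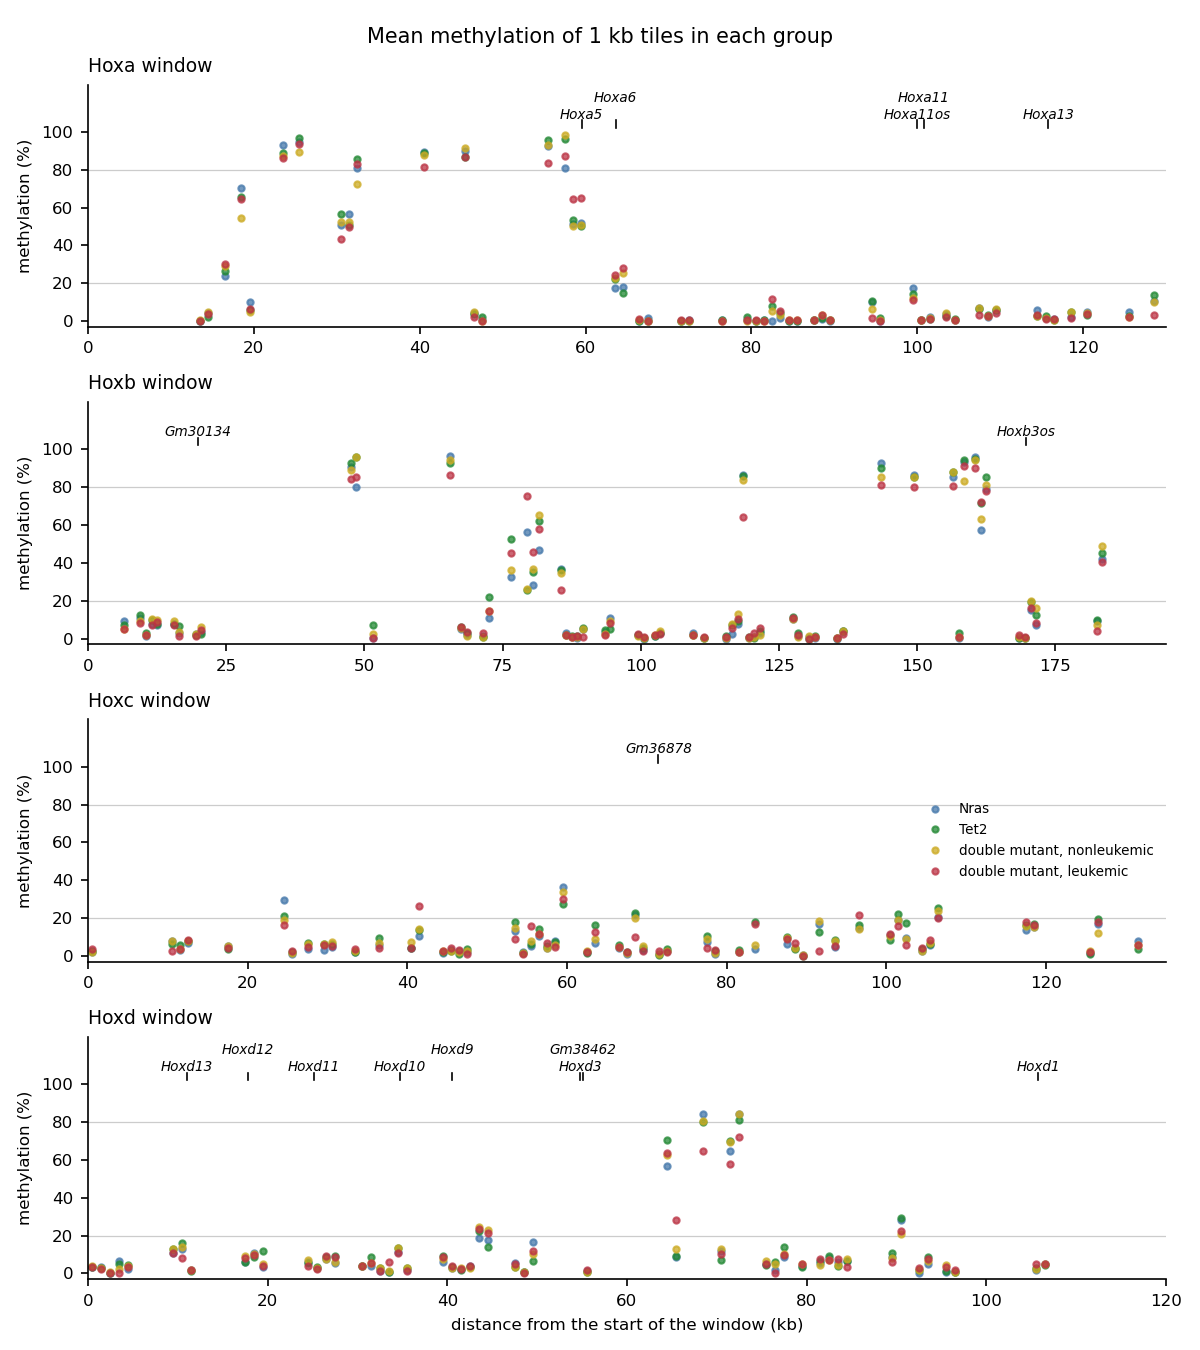
Group mean methylation (%) of each tested tile of 1000 bp against the distance in kb from the start of the window, in 4 panels for Hoxa, Hoxb, Hoxc and Hoxd. Ticks mark placed promoters and the lines stand at 20% and 80%; tiles over 80% number 7 in Hoxa, 9 in Hoxb, 0 in Hoxc and 1 in Hoxd.

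Partly methylated tiles varied most among libraries. The median SD of a tile between 20% and 80% was 5.82 points in Nras(G12D), 9.78 in Tet2(-/-), 4.85 in nonleukemic double mutants and 10.7 in the labelled leukemic group, beside 1.33, 1.92, 0.961 and 1.998 points for tiles under 20%. In the Hoxa tile chr6:52126000-52126999 the labelled leukemic libraries were at 23.5%, 65.8% and 60.4%, an SD of 23.0 points. In the Hoxd tile chr2:74567000-74567999, the 1 tile of that cluster with a mean over 80%, they were at 71.0%, 54.55% and 91.1%, an SD of 18.3 points.

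Of the 11 placed Hox promoters, 10 were low and Hoxa5 was methylated. The 10 others had means over the groups from 0.378% at Hoxa13 to 7.02% at Hoxd12. Their 120 library values ran from 0% to 15.4% with a median of 2.10%, and 117 of them were under 10%. Among 10200 placed autosomal promoters with tested CpGs, 93.4% were under 5% and 96.2% under 20%; of the 11 Hox promoters 8 were under 5% and 10 under 20%. By cluster, Hoxa6 was at 1.89%, Hoxa11 at 1.48% and Hoxa13 at 0.378%. In Hoxd, Hoxd13 was at 2.29%, Hoxd11 at 3.01%, Hoxd10 at 6.56%, Hoxd9 at 2.13%, Hoxd3 at 0.923% and Hoxd1 at 2.49%. The promoters of Hoxa9 and Hoxb4, the members best known in blood cells, were not placed and are not described.

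Hoxa5 encodes a homeodomain factor with roles in lung, skeletal and blood development, and methylation of its human promoter has been described in leukemias. Over its 8 tested CpGs, with 23 to 154 reads at the CpGs listed, the Nras(G12D) libraries were at 52.7%, 66.7% and 67.4%. The Tet2(-/-) libraries were at 68.95%, 72.1% and 56.7%, and the nonleukemic double mutant libraries at 71.3%, 70.1% and 75.3%. The labelled leukemic libraries were at 95.7%, 82.3% and 88.8%, above every library of the other groups. The group means were 62.3% ± 8.31 (SD, n = 3), 65.9% ± 8.14, 72.3% ± 2.72 and 88.9% ± 6.71. Labelled leukemic replicate 1 had no listed value at 3 of the 8 CpGs, and a position was listed only with at least 10 reads. Over the 5 CpGs listed in every library, a set chosen after these values were seen, the labelled leukemic libraries were at 95.7%, 87.5% and 88.9% and the highest other library was at 79.1%. Labelled leukemic replicate 2, which is not among the libraries that stand apart at Hox tiles, was at 82.3% over the 8 CpGs against at most 75.3% in the other groups. Genome-wide this library was also distant, over 20 points from the median at 18.8% of 13854 partly methylated tiles. For Tet2(-/-) replicate 2 that share was 20.1%.

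The tests of single CpGs made no call at Hoxa5. In the quasi-binomial fit over all autosomal CpGs, with Benjamini-Hochberg adjustment, the labelled leukemic mean was higher than Nras(G12D) at 8 of 8 CpGs, with a lowest adjusted p of 0.212. It was higher than Tet2(-/-) at 8 of 8, with a lowest adjusted p of 0.191, and than the nonleukemic double mutant at 7 of 8, with 0.309. At an unadjusted p under 0.05 the numbers of CpGs were 5, 5 and 2. Neighbouring CpGs can share reads, so these counts are not of independent sites. The whole tile chr6:52154000-52154999, with 48 CpGs, had labelled leukemic libraries at 78.7%, 57.8% and 58.05%, and its mean was above Nras(G12D) by 13.01 points (adjusted p = 0.2), above Tet2(-/-) by 14.4 points (adjusted p = 0.0879) and above the nonleukemic double mutant by 14.2 points (adjusted p = 0.144). The groups did not overlap in these 3 comparisons, and none passed the test. Without labelled leukemic replicate 1 the last difference was 6.53 points. In that tile the 8 CpGs of the promoter were at 71.9% and the 40 outside it at 54.9%.

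The neighbouring promoter of Hoxa6 lies 4.085 kb away and was low. Its 13 tested CpGs in the tile chr6:52158000-52158999 were at 1.87%, while the 18 CpGs of that tile outside the promoter were at 30.6%. Past the promoter, the tile chr6:52159000-52159999 was at 21.6%, and the next tested tile, chr6:52161000-52161999, was at 0.508%.

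**Figure D3:**
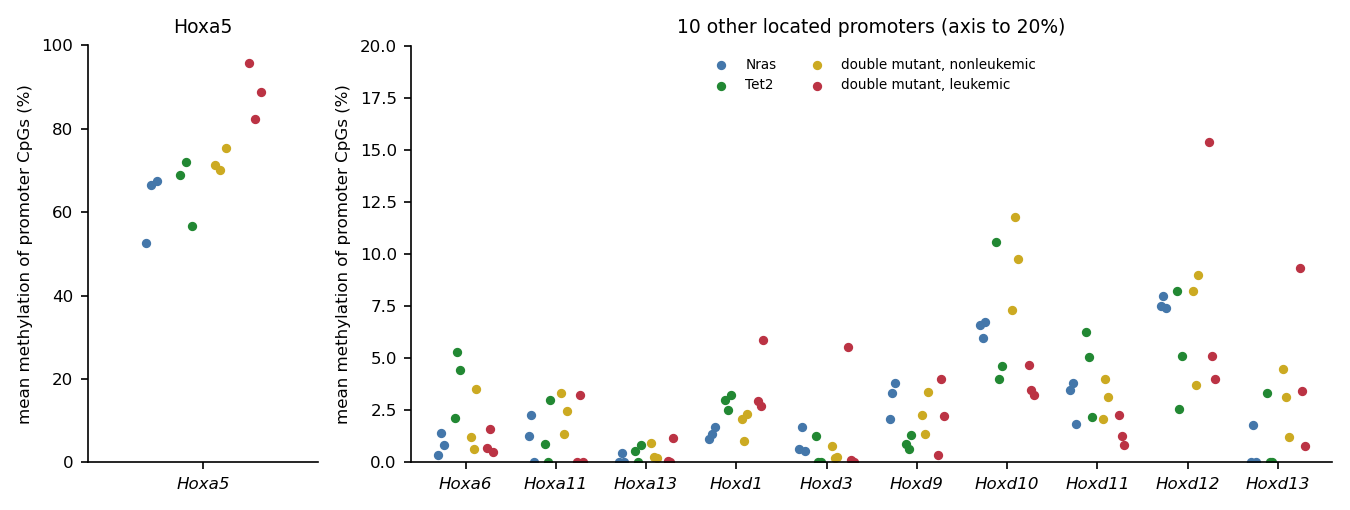
Mean methylation (%) of the tested CpGs of placed Hox promoters by library, with Hoxa5 on the left on an axis from 0 to 100% and the 10 other promoters on the right on an axis from 0 to 20%. The 3 labelled leukemic libraries are at 82.3% to 95.7% for Hoxa5, and the 10 others reach at most 15.4% in any library.

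Among the groups not labelled leukemic no Hox tile passed the test. To be called, a tile needed a change of at least 10 points together with an adjusted p under 0.05. Of all autosomal tiles, 0% were called between Tet2(-/-) and Nras(G12D), 0.00284% between the nonleukemic double mutant and Nras(G12D), and 0% between the nonleukemic double mutant and Tet2(-/-). At an unadjusted p under 0.05 there were 14, 6 and 7 Hox tiles, which is 6.36%, 2.73% and 3.18% of 220, beside 5.84%, 2.85% and 3.24% of all tiles. Limma on log ratios of methylated to unmethylated reads called 0 Hox tiles in each, and gave 8, 5 and 1 at an unadjusted p under 0.05. The limma shares of all tiles are not given here, so these counts are not set against the genome. The widest differences lay in the partly methylated run of Hoxb, where the tile chr11:96121000-96121999 differed by 20.2 points and chr11:96124000-96124999 by -30.8 points between Tet2(-/-) and Nras(G12D), and neither passed the test. The same tile chr11:96124000-96124999 differed by -30.3 points between the nonleukemic double mutant and Nras(G12D), with libraries that did not overlap and an adjusted p of 1. In Hoxa the tile chr6:52152000-52152999, with 3 CpGs, was 15.3 points higher in Tet2(-/-) and 17.2 points higher in the nonleukemic double mutant than in Nras(G12D), whose libraries were at 90.1%, 91.1% and 61.9%. Nras(G12D) replicate 3 was the low one, and without it the differences were 5.70 and 7.61 points. The tests with it gave adjusted p = 0.852 and 1. In Hoxc and Hoxd the widest differences in these 2 comparisons were 14.4 points at chr15:102823000-102823999 and 13.5 points at chr2:74559000-74559999, both Tet2(-/-) above Nras(G12D), with adjusted p = 0.865 and 0.856. These tiles held 3 and 5 CpGs. Without Tet2(-/-) replicate 2 the differences were 8.55 and 8.105 points, and the Hoxd difference turned to -0.292 points without the 3 libraries richest in Y chromosome positions.

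In the 3 comparisons with the labelled leukemic group few Hox tiles were called. Against the nonleukemic double mutant 2 tiles were called (0.909%), 1 higher and 1 lower, while 3.84% of all autosomal tiles were called, 3951 lower and 101 higher. Against Nras(G12D) 0 Hox tiles were called, beside 1.99% of all tiles. Against Tet2(-/-) 3 were called (1.36%), 1 higher and 2 lower, beside 7.33% of all tiles. At an unadjusted p under 0.05 the Hox tiles numbered 29, 43 and 39, which is 13.2%, 19.5% and 17.7%, beside 22.4%, 19.6% and 27.5% of all tiles. Limma called 0 Hox tiles in each of the 3, with 9, 18 and 21 at an unadjusted p under 0.05. These limma counts also stand without the limma shares of all tiles. The 3 comparisons share the labelled leukemic libraries. The fit gives all 4 groups 1 spread per tile, though the labelled leukemic libraries varied most.

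Fewer Hox tiles than tiles of the genome had all labelled leukemic libraries below those of the other group. Against the nonleukemic double mutant 8 Hox tiles were higher and 16 lower in all labelled leukemic libraries, 3.64% and 7.27%, beside 2.62% and 19.9% of all tiles. Against Nras(G12D) 13 were higher and 18 lower, 5.91% and 8.18%, beside 2.87% and 14.9%. Against Tet2(-/-) 12 were higher and 16 lower, 5.45% and 7.27%, beside 2.14% and 19.4%. Most Hox tiles start from low levels, where there is little room to be lower. Between 20% and 80%, 12 of 24 Hox tiles had lower labelled leukemic than nonleukemic double mutant means, beside 11892 of 14957 of all tiles. Over 80% the numbers were 14 of 17 and 50693 of 62513. Neither the difference in shares nor its cause was tested.

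No single CpG of the clusters was called, where the limits were 25 points or more and the same adjusted p. Of all autosomal CpGs, 0.000346% were called in Tet2(-/-) against Nras(G12D), 0.000346% in the nonleukemic double mutant against Nras(G12D) and 0% against Tet2(-/-). In the labelled leukemic group 0.00891% were called against the nonleukemic double mutant, 0% against Nras(G12D) and 0.0342% against Tet2(-/-). At an unadjusted p under 0.05 the Hox CpGs numbered 259, 252, 237, 489, 432 and 457 in the same order, which is 7.03%, 6.84%, 6.44%, 13.3%, 11.7% and 12.4%. Over all CpGs the shares were 5.83%, 5.43%, 5.34%, 12.1%, 11.3% and 12.6%. With the replicate number as a block, 7 Hox CpGs were called in the labelled leukemic group against Tet2(-/-). Limma called 1 Hox CpG, against Tet2(-/-) in the labelled leukemic group, and 0 in the other 5 comparisons. The shares of all CpGs called with the block and with limma are not given here, so these counts are not read as results about the Hox CpGs.

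The called tiles were 4 places, 1 higher and 3 lower in the labelled leukemic group. The higher one, chr11:96124000-96124999 in Hoxb, rests on 3 CpGs within 66 bp and 69 to 289 reads a library. Its libraries were at 41.0%, 49.55% and 78.7% in Nras(G12D), 37.9%, 0% and 39.0% in Tet2(-/-), 37.8%, 25.9% and 14.7% in the nonleukemic double mutant, and 98.6%, 66.7% and 60.4% in the labelled leukemic group. The labelled leukemic libraries lay above all Tet2(-/-) and nonleukemic double mutant libraries and overlapped Nras(G12D). The difference was 49.1 points from the nonleukemic double mutant (adjusted p = 0.0451), 49.6 points from Tet2(-/-) (adjusted p = 0.0394) and 18.8 points from Nras(G12D) (adjusted p = 0.225). This is 59.1 kb from the nearest placed promoter, that of the noncoding gene Gm30134.

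The call did not hold under many alternatives. Against the nonleukemic double mutant and Tet2(-/-) it was lost with limma on all 12 libraries (adjusted p = 0.342 and 0.129). It was also lost in the fit to only the libraries of the 2 groups compared (0.139 and 0.196). Against the nonleukemic double mutant it was lost without Nras(G12D) replicate 1 (adjusted p = 0.0616) or 2 (0.0661), which leave the difference itself as it was, nonleukemic replicate 1 (0.106, 54.96 points), or labelled leukemic replicate 1 (0.0944, 37.4 points) or 2 (0.0523). Against Tet2(-/-) it was lost without Nras(G12D) replicate 1 (adjusted p = 0.0516) or 2 (0.0561), Tet2(-/-) replicate 2 (0.0854, 36.8 points), nonleukemic replicate 1 (0.057) or labelled leukemic replicate 1 (0.133, 37.9 points). With the 3 libraries richest in Y chromosome positions left out, which leaves 1 Tet2(-/-) library assumed to vary like the others, the adjusted p was 0.162 (54.96 points) and 0.345 (36.2 points). Without the 3 libraries that stand apart at partly methylated Hox tiles it was 0.0982 (40.55 points) and 0.243 (28.2 points).

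The Hoxc tile chr15:102831000-102831999 had 7 CpGs within 53 bp and 291 to 1196 reads a library. Its libraries were at 18.5%, 9.36% and 22.2% in Nras(G12D), 16.4%, 0% and 21.75% in Tet2(-/-), 14.2%, 26.4% and 14.6% in the nonleukemic double mutant, and 0%, 6.07% and 2.26% in the labelled leukemic group. The labelled leukemic libraries lay below every Nras(G12D) and nonleukemic library, and Tet2(-/-) replicate 2 was as low. The difference from the nonleukemic double mutant was -15.6 points (adjusted p = 0.0392), with 7 of 7 CpGs lower. That count comes from a tile called for being lower, and CpGs this close can share reads, so it is not a separate test. The call of this tile depended on many libraries. It was lost without Nras(G12D) replicate 1 (adjusted p = 0.0601), Tet2(-/-) replicate 1 (0.0606) or 3 (0.0526), nonleukemic replicate 1 (0.0848), 2 (0.192) or 3 (0.0864), or labelled leukemic replicate 1 (0.058) or 3 (0.0628). It was also lost without the 3 libraries that stand apart (adjusted p = 0.102, -12.3 points) and with the 3 libraries richest in Y chromosome positions left out (0.11, -17.7 points). The call was lost with limma on all 12 libraries (adjusted p = 0.352) and in the fit to only the libraries of the 2 groups compared (0.109).

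The Hoxa tile chr6:52125000-52125999 held 41 CpGs within 619 bp and 2164 to 4145 reads a library, the deepest of the 4. Its libraries were at 53.6%, 50.5% and 48.3% in Nras(G12D), 59.65%, 56.0% and 54.6% in Tet2(-/-), 54.5%, 48.3% and 53.6% in the nonleukemic double mutant, and 44.3%, 40.45% and 45.7% in the labelled leukemic group. All 3 labelled leukemic libraries lay below all others. The difference was -13.3 points from Tet2(-/-) (adjusted p = 0.00463), -8.65 points from the nonleukemic double mutant (adjusted p = 0.0505) and -7.32 points from Nras(G12D) (adjusted p = 0.116). Against Tet2(-/-) 28 of 41 CpGs were lower, 8 of them at an unadjusted p under 0.05, and 13 were higher with 0 at that level. These counts come from a tile called for being lower, and neighbouring CpGs can share reads. The tile lies 29.5 kb from the Hoxa5 promoter on the side of the more anterior genes. The call held without each library in turn and without the 3 libraries that stand apart, and was lost with limma (adjusted p = 0.401) and with 2 groups alone (0.0929), which leave the difference as it was. With the 3 libraries richest in Y chromosome positions left out, and so 1 Tet2(-/-) library, it was -11.8 points (adjusted p = 0.21).

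The Hoxc tile chr15:102842000-102842999 had 12 CpGs within 325 bp and 844 to 2533 reads a library. Its libraries were at 5.32%, 15.15% and 7.33% in Nras(G12D), 12.65%, 20.5% and 19.4% in Tet2(-/-), 9.27%, 7.23% and 10.6% in the nonleukemic double mutant, and 3.95%, 7.17% and 6.17% in the labelled leukemic group. Tet2(-/-) was the highest group and did not overlap the labelled leukemic libraries. With 11 of 12 CpGs lower, a count that comes from a tile called for being lower, the difference from Tet2(-/-) was -11.7 points (adjusted p = 0.0155). From the nonleukemic double mutant it was -3.27 points (adjusted p = 0.35). The call against Tet2(-/-) was not stable. It was lost without Tet2(-/-) replicate 3 (adjusted p = 0.069, -10.8 points), without the 3 libraries that stand apart (0.157, -8.84 points) and, with 1 Tet2(-/-) library left, without the 3 libraries richest in Y chromosome positions (0.207, -13.6 points). The call was lost with limma on all 12 libraries (adjusted p = 0.135) and in the fit to only the libraries of the 2 groups compared (0.103).

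**Figure D4:**
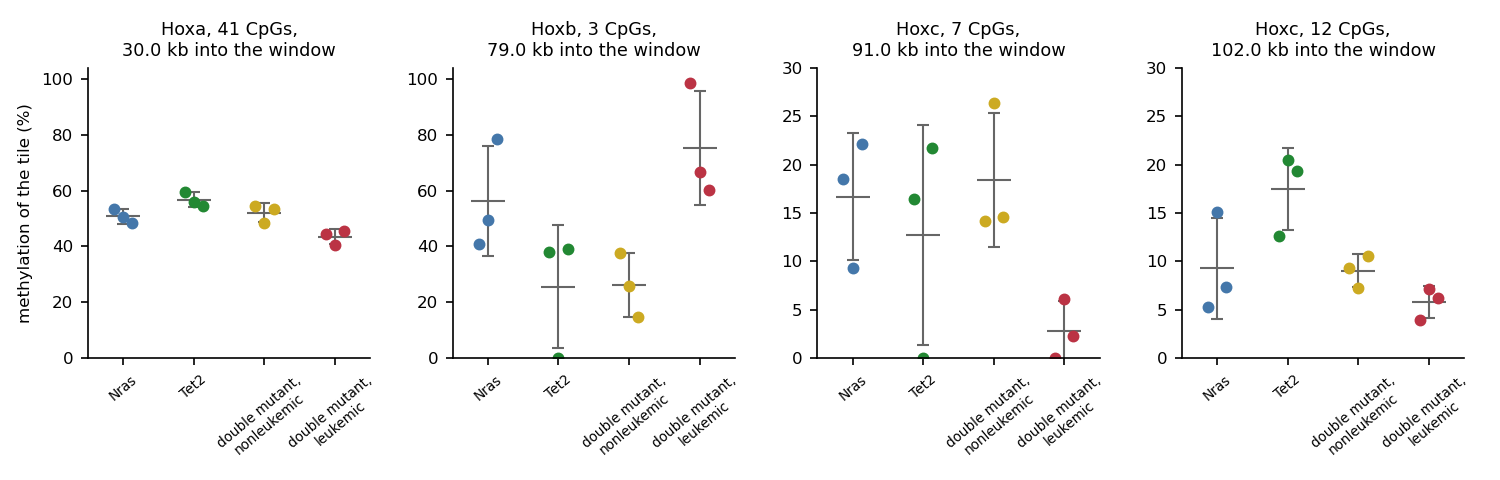
Methylation (%) by library of the 4 called Hox tiles, with points for libraries, a bar for the mean and whiskers for the SD of 3 libraries. The Hoxc panels have a shorter axis, from 0 to 30%; the labelled leukemic libraries are at 60.4% to 98.6% in the Hoxb tile and at 40.45% to 45.7% in the Hoxa tile.

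Outside the called tiles, the widest differences between the labelled leukemic and nonleukemic double mutant groups did not pass the test with all libraries. In Hoxa they were the tile of the Hoxa5 promoter and its neighbour chr6:52153000-52153999, higher by 14.15 points (adjusted p = 0.147), or 7.655 points without labelled leukemic replicate 3 and 9.31 without nonleukemic replicate 1. The lower Hoxa tile chr6:52150000-52150999, with 11 CpGs, passed the test at -14.97 points (adjusted p = 0.0117) without labelled leukemic replicate 1. In Hoxb the tile chr11:96163000-96163999, with 4 CpGs, differed by -19.6 points (adjusted p = 0.294), and passed the test at -28.25 points without labelled leukemic replicate 1. With that library left out 2 Hox tiles were called, both lower, beside 6.47% of all autosomal tiles. The Hoxb tile chr11:96093000-96093999 was at -38.3 points without the 3 libraries that stand apart, and at -17.98 without labelled leukemic replicate 3. In Hoxd, chr2:74563000-74563999 differed by -15.7 points (adjusted p = 0.186) and chr2:74560000-74560999 by 15.3 points (adjusted p = 0.281). Without labelled leukemic replicate 3 they were -7.53 and 6.76 points.

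The counts of called tiles turned on single libraries. Against Tet2(-/-) there were 8, all lower, without labelled leukemic replicate 1, when 10.4% of all tiles were called, and 5 without replicate 2, beside 6.99%. With the 3 libraries richest in Y chromosome positions left out, which leaves 1 Tet2(-/-) library, 0 Hox tiles were called against the nonleukemic double mutant, Nras(G12D) and Tet2(-/-), beside 0.224%, 0.228% and 0.0329% of all tiles. Without Tet2(-/-) replicate 2 and labelled leukemic replicates 1 and 3 there were 5, 3 and 4 against the nonleukemic double mutant, Nras(G12D) and Tet2(-/-), all lower, beside 8.34%, 6.13% and 8.91% of all tiles, with 1 labelled leukemic library assumed to vary like the others.

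With all libraries, partly methylated Hox tiles did not share the lower mean that partly methylated tiles of the genome had in the labelled leukemic group. The 24 Hox tiles between 20% and 80% averaged 44.4% ± 1.45 (SD, n = 3) in Nras(G12D), 45.9% ± 1.40 in Tet2(-/-), 44.4% ± 0.169 in nonleukemic double mutants and 45.6% ± 4.31 in the labelled leukemic group. The 14957 autosomal tiles of this class averaged 57.9%, 62.5%, 60.8% and 51.0%. From the nonleukemic double mutant to the labelled leukemic group the median Hox tile differed by 0.0571 points, with 12 of 24 lower, and the median tile of the whole class by -8.14 points, with 11892 of 14957 lower. The labelled leukemic libraries were at 50.5%, 43.6% and 42.6% over the Hox tiles, so replicate 1 lay above and replicate 3 below all other libraries, which were at 42.85% to 47.3%. Replicates 2 and 3 lay below all nonleukemic double mutant libraries, at 44.2% to 44.6%, so the group mean rests on replicate 1. The labelled leukemic mean exceeded the nonleukemic one in Hoxa (46.2% against 42.1%) and Hoxb (53.2% against 49.35%). It was lower in Hoxc (22.3% against 25.5%) and Hoxd (46.3% against 51.5%). With 24 tiles, this is a description, and the difference from the genome was not tested.

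In the methylated class both the Hox tiles and the genome had lower means in the labelled leukemic group. The 17 Hox tiles over 80% averaged 88.6%, 90.6%, 88.3% and 84.1% in the same order of groups, with a median difference of -5.00 points between the labelled leukemic and nonleukemic double mutant groups and 14 of 17 lower. Over 62513 autosomal tiles the median difference was -4.19 points, with 50693 lower. The labelled leukemic libraries were at 88.9%, 77.95% and 85.5%, and replicate 1 lay within the range of the other groups. The 179 low Hox tiles averaged 4.75%, 5.58%, 5.21% and 4.98%.

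**Figure D5:**
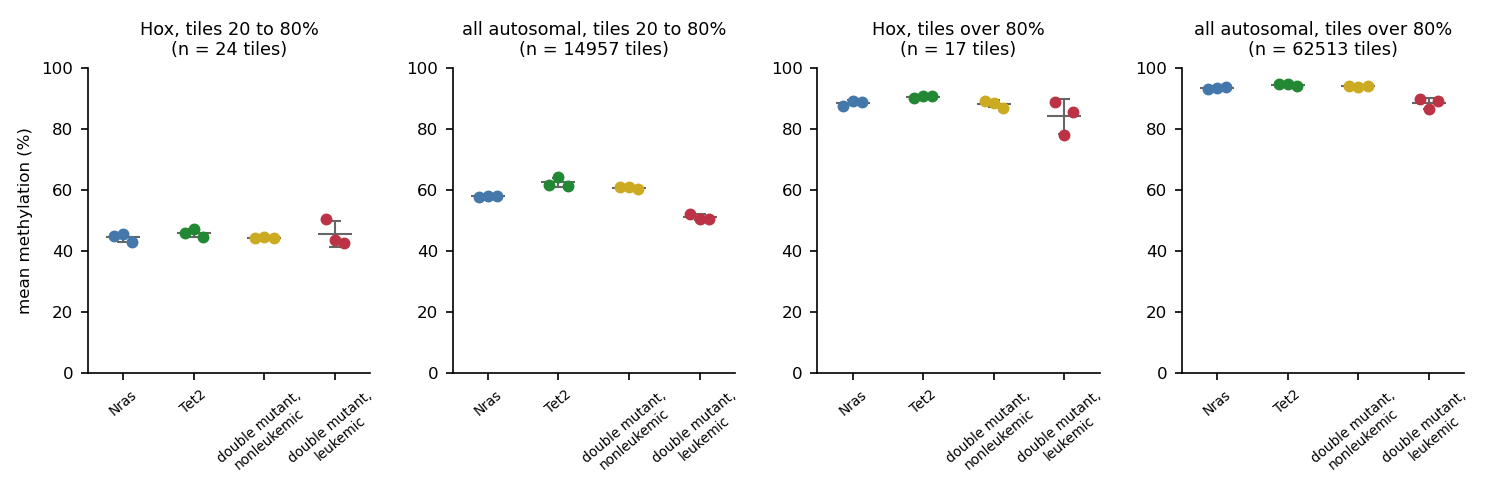
Mean methylation (%) by library of tiles between 20% and 80% and of tiles over 80%, for the Hox clusters (24 and 17 tiles) and for all autosomes (14957 and 62513 tiles), on axes from 0 to 100%. The labelled leukemic libraries are at 42.6% to 50.5% in the partly methylated Hox tiles, where the other libraries are at 42.85% to 47.3%, and at 50.4% to 52.2% in all autosomal tiles of that class, below every other library.

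Genes that act with or on the Hox clusters were also low at their placed promoters. Of 30 such genes, among them the cofactors Meis1 and Pbx2, the activating methyltransferases Kmt2a and Dot1l, and the Polycomb genes Ezh2, Suz12 and Bmi1, 21 had a promoter sequence and 15 were placed. All 15 were under 5%, with a highest level of 0.446% at Kmt2a, and Meis1 was at 0.444%. In the 18 tiles of these promoters 0 were called in each of the 6 comparisons, with 1, 0, 0, 3, 4 and 3 at an unadjusted p under 0.05. Over all tiles the shares at that level were 5.84%, 2.85%, 3.24%, 22.4%, 19.6% and 27.5%. Of 8 stem and progenitor markers 4 were placed, all under 5%: Kit at 0.0992%, Flt3 at 0.291%, Gata2 at 0.329% and Hlf at 0.0804%. No promoter of 11 markers of mature blood cells was placed, so the purity of the sort was not tested.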

How the data were processed

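Reduced representation bisulfite sequencing (MspI fragments of 150 to 400 bp, single-end reads of 50 bases) measured CpG methylation in 12 libraries. The deposited tables give, for each strand position, the coverage as a read count and the percent of reads called C or T, with at least 10 reads in each listed position. Per the submitters' processing notes the authors used Bismark with mm9 (NCBIM37), and other steps are not given in the sources used here.

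The strands of a CpG were summed, methylated and unmethylated reads were taken back from the deposited percent and count values, and library values above the 99.9th percentile of coverage were left out. A quasi-binomial model was fitted to each tile of 1000 bp with at least 3 CpGs and to each CpG over all 12 libraries (4 groups, 8 residual degrees of freedom). Its dispersion, shared by all 4 groups, was moderated across features and kept at 1 or more. The 6 comparisons were tested by F tests with Benjamini-Hochberg adjustment over all autosomal features. The mean chi-square of read counts per tile between replicates was 22.1 to 35.3 in the labelled leukemic group. It was 5.72 to 5.93 in nonleukemic double mutants, 5.99 to 10.4 in Nras(G12D) and 9.10 to 16.55 in Tet2(-/-). Adjusted p-values of the labelled leukemic group thus rest partly on quieter groups and can be too small. Group levels are means of library levels. Cluster means were compared by exact permutation tests. Limma 3.58.1 in R 4.3.3 on log2 ratios with a pseudocount of 1 was an alternative, beside other tile grids, limits, coverage minimums and left-out libraries. The fits ran in Python 3.11.15 (SciPy 1.17.1, NumPy 2.4.6, numba 0.67.0) and were tested on simulated data.

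The rule for named tiles took every called Hox tile, in each cluster the 2 largest rises and falls in 3 comparisons (Tet2(-/-) against Nras(G12D), nonleukemic double mutant against Nras(G12D), and labelled leukemic against nonleukemic), the 2 highest tiles and the most variable tile, and tiles with a placed promoter, 56 tiles in all; the text prints those its results turn on, and tiles named as the bounds of a run were chosen after their values were seen. The windows, members and gene lists were chosen with earlier results of these data known.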

Additional observations from a re-analysis of the deposited data

Results flagged for a closer look

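Positions on the Y chromosome were listed in libraries of every group, in data that entered no comparison. There were 360 in Tet2(-/-) replicate 1, 349 in nonleukemic double mutant replicate 1 and 251 in Tet2(-/-) replicate 2. The counts were 18 in labelled leukemic replicate 1, 13 in Nras(G12D) replicate 2, 7 in labelled leukemic replicate 2, 7 in Nras(G12D) replicate 3, 6 in Nras(G12D) replicate 1, 6 in Tet2(-/-) replicate 3 and 5 in nonleukemic double mutant replicate 3. The labels give no sex.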

How the results depend on the processing

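Of 105 values of the 5 called tile differences under alternatives, 61 kept the call, 44 lost it and 0 turned direction; of 1021 values of uncalled named differences 1010 kept direction and side, 4 passed the test and 7 turned sign. Named tiles have no value on shifted or resized grids. Counts of called Hox tiles are given for the labelled leukemic group against the nonleukemic double mutant, Nras(G12D) and Tet2(-/-). With limits of 5 points the last count was 6, and with 20 points the first and last were 1 and 1. Limma gave 0 and 0 for these and 1 CpG against Tet2(-/-), and fits with only the 2 groups compared gave 0 and 0. With at least 10 reads in every library the first was 1. Tiles shifted by 500 bp gave 1, 2 and 8, tiles of 500 bp 0, 1 and 6, and tiles of 2000 bp 1 and 1 for the first 2 comparisons. With the 3 libraries richest in Y chromosome positions left out, the first and last were 0 and 0. Without the 3 libraries that stand apart, an alternative chosen after seeing the data, the first 2 were 5 and 3. Leaving out each library gave 0 to 3, 0 to 1 and 2 to 8 tiles, and 0 to 1 CpGs against Tet2(-/-). With each library left out, the shares of all tiles called were 0.68% to 6.47%, 0.274% to 4.16% and 3.39% to 10.4% in the same order. For the other limits, fits, coverage minimums and grids those shares are not given here. Their counts are therefore not read as results about the Hox tiles or CpGs.

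Same-numbered libraries showed no strong pairing: their 18 correlations ran from -0.0182 to 0.036, beside -0.0493 to 0.0419 for 36 other pairs. Yet 8 of 12 libraries were closest to their own number, and a weak pairing was not tested. With the replicate block 0 Hox tiles were called against the nonleukemic double mutant and 7 CpGs against Tet2(-/-), and the Hoxb tile chr11:96124000-96124999 was lost against Tet2(-/-) too (adjusted p = 0.0829). The shares of all tiles and CpGs called with the block are not given here.

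Weighting by coverage moved Hoxa to 1.496 points for Tet2(-/-) minus Nras(G12D), -2.16 for nonleukemic minus Tet2(-/-), and -1.17, -1.84 and -3.33 for labelled leukemic minus nonleukemic, Nras(G12D) and Tet2(-/-), and Hoxb to 4.10 and -3.96 for the first 2. Leaving out each library gave -1.345 to -0.1245 for Hoxa in nonleukemic minus Tet2(-/-). Signs turned for Tet2(-/-) minus Nras(G12D) at chr2:74559000-74559999 (-0.292) and chr2:74514000-74514999 (-2.16) with the Y-rich libraries left out, and at chr6:52126000-52126999 (3.17) without Tet2(-/-) replicate 2 or the 3 libraries that stand apart (leaving out each library in turn gave -14.7 to 3.17). Without those 3, labelled leukemic minus nonleukemic became 0.485 at chr6:52152000-52152999 and -2.00 at chr15:102781000-102781999. Nonleukemic minus Nras(G12D) became 1.06 at chr2:74544000-74544999 without Nras(G12D) replicate 3 (-7.454 to 1.06 over all such omissions). The cause was not tested. The Hoxb tile rests on 3 CpGs and the fewest reads of the called tiles, and 3 libraries a group limit every test.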
